A study of Chlamydomonas reinhardtii with 12 samples.

Results

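The transcript response of the *phot* mutant of the green alga *Chlamydomonas reinhardtii* to strong light was described from the 6 libraries of that genotype, out of 12 in the series. They formed 2 groups of 3: *phot* LL, kept at 5 µmol photons per square metre and second, and *phot* HL, moved from that light to 300 µmol photons per square metre and second for 60 min. All cultures, those of the wild type included, were first acclimated to low light in Sueoka's high salt medium, and the LL cultures are the cells before the shift. The mutant is 1 strain in which *PHOT1* (Cre03.g199000), the gene for the blue-light receptor phototropin, is disrupted. The 6 libraries of the wild type CC-125 (WT), 3 in LL and 3 in HL, served for comparison only. Within each group the libraries are called A, B and C. *PHOT1* was at 4.56, 3.87 and 4.09 CPM in LL and 4.76, 4.33 and 4.64 CPM in HL of the mutant, against 308, 315 and 325 CPM in WT LL and 250.0, 241 and 240.3 CPM in WT HL, where CPM is the count scaled to a common library size. The mutant therefore kept low counts over this gene that did not separate the light conditions (log2 fold change 0.13 ± 0.11, adjusted p = 0.32). Genes that mark a green alga doing photosynthesis, such as *RBCS2* and *LHCBM1*, were among the most counted in every *phot* library.

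Phototropin is a kinase with flavin-binding domains that is activated by blue light, and in *Chlamydomonas* it acts in the induction of photoprotection. A green cell that meets strong light has a few known ways to respond. It can make stress-related light-harvesting proteins of the LHCSR type and PSBS, which turn absorbed energy into heat (the qE component of quenching). It can change the size of its antenna, the LHC proteins that collect light, or switch on the CO2-concentrating mechanism (CCM), in which bicarbonate is pumped inward and turned back into CO2 by carbonic anhydrases beside Rubisco in the pyrenoid. Besides phototropin the alga has cryptochromes, a UV-B receptor and rhodopsins, and its photosynthetic electron flow and CO2 supply also change with light. The comparison of *phot* HL with *phot* LL asks which of these processes change in strong light when phototropin is missing.

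The response was broad. Of 14251 genes that passed the expression filter, 8401 differed between *phot* HL and *phot* LL by edgeR's quasi-likelihood test at a Benjamini-Hochberg adjusted p of 0.05, which is 59.0% of those tested. The genes higher in HL numbered 4449 (31.2%) and those lower 3952 (27.7%). Most changes were small, with a median size of 0.73 on the log2 scale among called genes and a median over all genes of 0.03. When the test asked for a change beyond 2-fold, 1507 genes passed (10.6%), of which 742 were higher (5.21%) and 765 lower (5.37%). The largest changes were mainly rises, since 66 genes rose and 31 fell by more than 4 on the log2 scale. The 3 HL libraries all lay above the 3 LL libraries in 38.5% of the genes and all below in 34.1%. These shares are the background for every count of a gene list below. Because the counts come from whole cultures, a change in some of the cells and a change in all of them cannot be told apart.

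**Figure D1:**
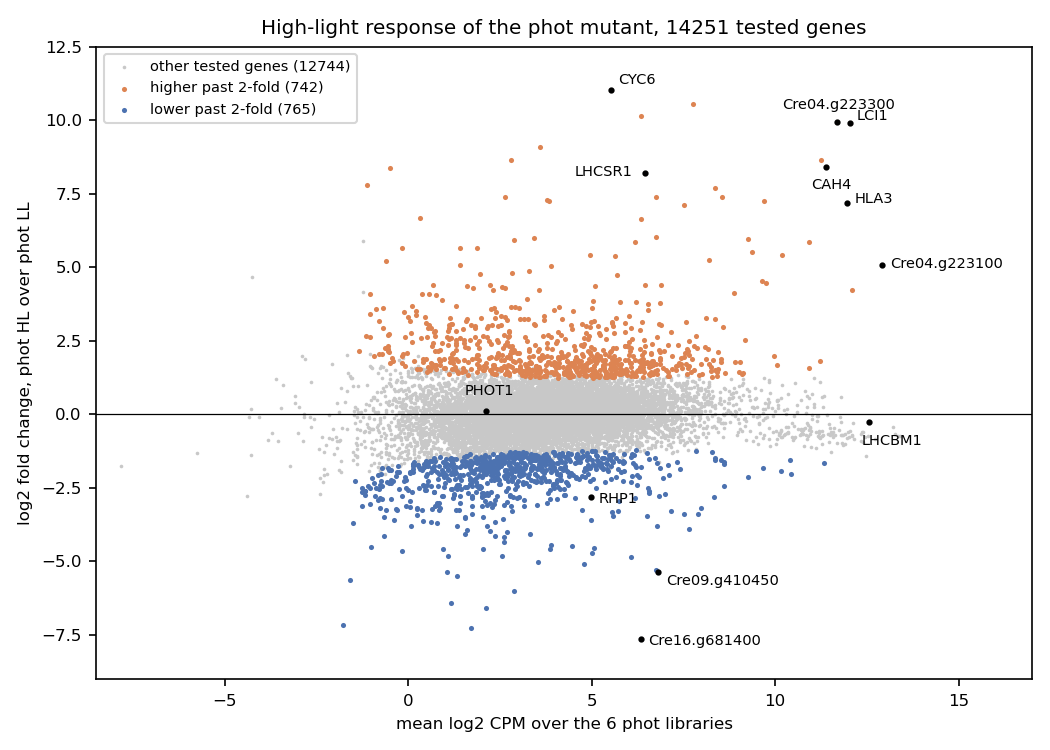
Log2 fold change of phot HL over phot LL (vertical axis) against the mean log2 CPM over the 6 phot libraries (horizontal axis) for the 14251 tested genes, 1 point per gene, with the 742 genes higher and 765 lower past 2-fold in colour and named genes in black. The rises reach further than the falls, and *LHCBM1* and *PHOT1* lie near 0. The fitted value of *CYC6*, whose 3 LL libraries held at most 2 counts, depends on the prior count.

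Genes of inorganic carbon uptake were among those that rose strongly. *LCI1* (Cre03.g162800), a plasma membrane channel for inorganic carbon, was at 11.4, 6.09 and 8.54 CPM in LL and 9237, 7306 and 8567 CPM in HL. *HLA3* (Cre02.g097800), the ABC transporter that brings bicarbonate through the plasma membrane, was at 53.0, 47.7 and 60.4 CPM in LL and 8821, 6340.1 and 8501 CPM in HL. *LCIA* (Cre06.g309000), an anion channel of the chloroplast envelope, was at 64.6, 56.4 and 76.9 CPM in LL and 4275, 3077 and 4186 CPM in HL. In all of these the HL libraries lay far above the LL libraries, with log2 fold changes of 9.90 ± 0.43, 7.20 ± 0.41 and 5.87 ± 0.39 (adjusted p = 4.8e-10, 5.9e-09 and 2.1e-08). *CCP2* (Cre04.g222750), a carrier protein of the chloroplast envelope, went from 3.21, 2.26 and 4.03 CPM to 916, 333 and 719.6 CPM (log2 fold change 7.69 ± 0.58, adjusted p = 7.6e-08). *LCI11* (Cre16.g663450), a bestrophin-like channel, was already well expressed in LL and was at 146, 152 and 195 CPM in LL and 602, 475 and 621 CPM in HL (log2 fold change 1.78 ± 0.18, adjusted p = 1.4e-06). The exception was *RHP1* (Cre06.g284100), a Rhesus-like protein known from cells grown in high CO2, which fell from 54.4, 57.5 and 55.1 CPM to 7.96, 8.94 and 6.65 CPM (log2 fold change -2.82 ± 0.12, adjusted p = 4.1e-10). Of the 7 transporters and channels listed, 6 were tested, 5 rose and 1 fell, each past 2-fold, with a median log2 change of 6.53. *RHP2* was not tested because it was nearly uncounted. *BST1*, which the study names among the carbon transporters, was not on this list under that name, so the count does not cover every such gene.

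Carbonic anhydrases changed in both directions. The mitochondrial pair *CAH4* (Cre05.g248400) and *CAH5* (Cre05.g248450), near-identical neighbours on the chromosome, rose most. *CAH4* was at 15.7, 14.3 and 16.2 CPM in LL and 5267, 4882 and 5709 CPM in HL and *CAH5* at 12.7, 10.4 and 12.4 CPM in LL and 4809, 4466 and 5160.4 CPM in HL. Their log2 fold changes were 8.42 ± 0.22 and 8.66 ± 0.27 (adjusted p = 4.4e-12 and 1.7e-11), and with the counts of both copies summed the change was 8.53 ± 0.24. *CAH3* (Cre09.g415700), the enzyme of the thylakoid lumen that feeds CO2 to the pyrenoid, was at 162, 194 and 182 CPM in LL and 331, 270.1 and 345 CPM in HL (log2 fold change 0.82 ± 0.16, adjusted p = 4.4e-04). *CAH8* (Cre09.g405750) also rose, by 0.55 ± 0.14 (adjusted p = 0.0041). *CAH2* (Cre04.g223050), a periplasmic enzyme known from high CO2, was the one that fell, from 6.12, 6.33 and 6.03 CPM to 1.80, 2.49 and 2.78 CPM (log2 fold change -1.39 ± 0.17, adjusted p = 8.2e-06). *CAH6*, *CAH7* and *CAH9* did not pass the test, with log2 fold changes of -0.03 ± 0.15, 0.32 ± 0.19 and -0.26 ± 0.14. Among the 8 enzymes of this list, *CAH2* to *CAH9*, 4 rose and 1 fell, with a median of 0.44. *CAH1*, the periplasmic enzyme that the study names, was not on this list under its name. These counts therefore leave it out and say nothing about its response.

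All 4 members of the LCIB family rose. LCIB and LCIC form a complex around the pyrenoid that recaptures leaking CO2, and LCID and LCIE are their relatives. *LCIB* (Cre10.g452800) and *LCIC* (Cre06.g307500) were abundant before the shift, *LCIB* at 1324, 1350.1 and 1741 CPM in LL and 2438, 1856 and 2574 CPM in HL and *LCIC* at 961, 975 and 1231 CPM in LL and 3932, 3109 and 4137 CPM in HL. The 2 relatives started low, *LCID* (Cre04.g222800) at 26.1, 24.2 and 33.9 CPM in LL and 1421, 1005 and 1448 CPM in HL and *LCIE* (Cre04.g223250) at 4.53, 3.57 and 2.69 CPM in LL and 64.2, 15.7 and 44.0 CPM in HL. The rise was therefore smallest for the most counted member, with log2 fold changes of 0.64 ± 0.20, 1.82 ± 0.19, 5.52 ± 0.32 and 3.51 ± 0.61 in that order (adjusted p = 0.014, 1.6e-06, 6.2e-09 and 2.0e-04). *LCIB* lost its call without HL library A, HL library C, LL library A and LL library B (adjusted p = 0.058, 0.074, 0.073 and 0.054).

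Other low-CO2 inducible genes and the regulators of the CCM moved less. *LCI34* (Cre03.g191250), *LCI24* (Cre03.g179800) and *LCI9* (Cre09.g394473) rose by 1.55 ± 0.10, 1.42 ± 0.12 and 0.79 ± 0.13 on the log2 scale. *LCI30* (Cre12.g507300) went the other way, from 1252, 1272 and 1298 CPM to 379, 346 and 352 CPM (log2 fold change -1.83 ± 0.12, adjusted p = 1.6e-08). *LCR1* (Cre09.g399552), a MYB-type transcription factor that promotes *LCI1* expression, was at 89.9, 84.2 and 97.1 CPM in LL and 329, 167 and 293 CPM in HL (log2 fold change 1.54 ± 0.33, adjusted p = 0.0011). *CIA5* (Cre02.g096300), the zinc-finger protein that is the master switch of the CCM, fell slightly, from 189, 201 and 212 CPM to 139.7, 139 and 139 CPM (log2 fold change -0.53 ± 0.10, adjusted p = 3.6e-04). *CAS* (Cre12.g497300), the chloroplast calcium sensor, rose from 221, 248 and 180.4 CPM to 593, 564 and 591 CPM (log2 fold change 1.43 ± 0.13, adjusted p = 4.3e-07). Of the 4 regulators listed, 2 rose and 1 fell, and Cre02.g103800 did not pass the test (-0.36 ± 0.19).

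Over the whole CCM list, taken from the study's supplement, 36 of the 72 members tested rose and 11 fell, with a median log2 change of 0.30, beside 31.2% and 27.7% of all genes and a median of 0.03. Past 2-fold, 18 rose and 5 fell. The 73 CCM genes together took 5.24% to 5.36% of all counts in the *phot* LL libraries and 8.21% to 8.95% in the *phot* HL libraries, without overlap. The 27 CCM genes that belong to no smaller list moved in no common direction, with 8 higher, 5 lower and a median of 0.02. Among them *HPR1* (Cre06.g295450), hydroxypyruvate reductase of photorespiration, rose from 68.1, 84.9 and 87.3 CPM to 322, 289 and 358 CPM (log2 fold change 2.01 ± 0.14, adjusted p = 3.2e-08). Cre16.g655050 and *TEF9* rose too, by 1.61 ± 0.24 and 1.40 ± 0.14. Cre16.g652800 fell by 2.55 on the log2 scale (adjusted p = 4.8e-09), and *IGS1* and *ACP2*, an acyl carrier protein, changed by -1.54 ± 0.20 and -1.42 ± 0.20.

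**Figure D2:**
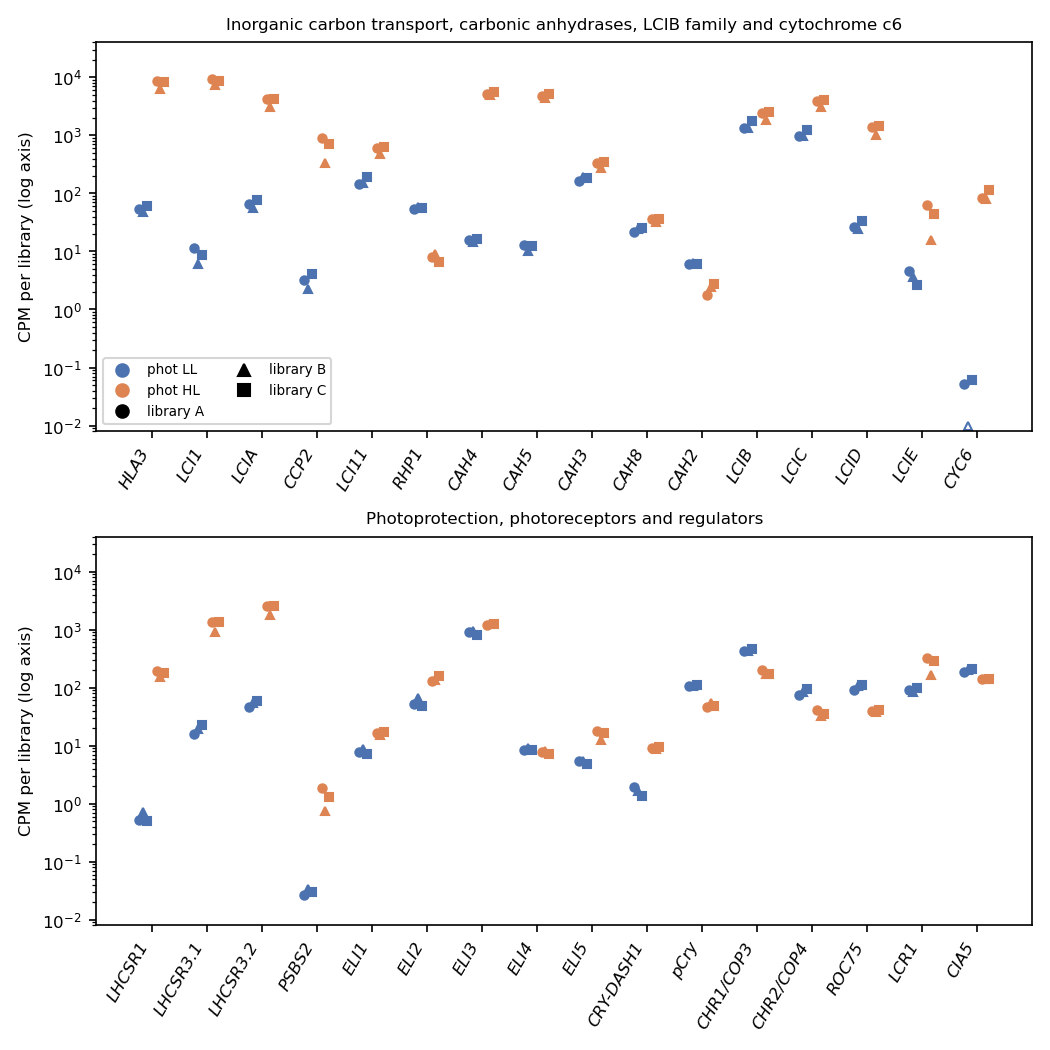
CPM of each phot library on a log axis, LL in blue and HL in orange, with circles, triangles and squares for libraries A, B and C and an open symbol at the lower edge for a library without counts. The carbon transporters except *RHP1* and the *LHCSR* genes sit far apart between LL and HL, and the triangle of HL library B is the lowest of the 3 HL points in most genes that rose.

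One high-light library had weaker rises than the other 2. *phot* HL library B was the lowest of the 3 HL libraries in 29 of the 36 CCM genes that rose, in 17 of the 18 that rose past 2-fold, in all 5 transporters and in all 4 qE genes. Over all genes it was lowest in 37.3% of those tested, 46.4% of those that rose and 65.4% of those that rose past 2-fold. In the CCM genes that rose past 2-fold its CPM was 0.817 of the mean of libraries A and C at the median. Without it, 7661 genes were called and 1446 passed the 2-fold test. The log2 change of *LCR1* was then 1.76, of *CCP2* 7.98 and of *LCIE* 3.88. These 3 genes kept their calls, whereas 2 CCM genes described below, *RBCS1* and *CGLD10*, lost theirs.

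A stretch of 12 neighbouring genes on chromosome 4, in the order of the RefSeq annotation, ran from *CCP2* and *LCID* to *LCIE* and Cre04.g223300 and held several strong risers. Cre04.g223100, between them, was at 467, 425 and 434 CPM in LL and 16137, 13884 and 15302 CPM in HL and was the most counted gene of *phot* HL (log2 fold change 5.09 ± 0.18, adjusted p = 6.9e-11). It took 0.0466% to 0.0563% of all counts in LL and 1.71% to 1.87% in HL. Cre04.g223300 was at 6.73, 6.43 and 6.63 CPM in LL and 6964, 5633 and 7063 CPM in HL (log2 fold change 9.95 ± 0.37, adjusted p = 1.1e-10). The genes in between did not all follow. Cre04.g222950 fell by 2.94 on the log2 scale and *CAH2* by 1.39, Cre04.g223200 and Cre04.g223225 fell by 0.35 and 0.49, and Cre04.g223000 did not pass the test (−0.12). Cre04.g223200 lost its call without HL library B, HL library C, LL library B and LL library C (adjusted p = 0.061, 0.062, 0.086 and 0.078). Genes that rose and genes that fell were thus both found in this stretch.

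The CCM list of the study also holds electron carriers and starch enzymes. *CYC6* (Cre16.g651050), cytochrome c6, the heme protein that can replace plastocyanin in the thylakoid lumen, was switched on. It had 2, 0 and 2 counts in the LL libraries and 2737, 3344 and 3582 counts in the HL libraries. The ratio of the summed counts was 2288-fold higher in HL (exact 95% interval from 893 to 8399.9, which covers counting error only, as do the other intervals of this kind). *Fd/FDX1* (Cre14.g626700), the main ferredoxin, fell from 4727, 5125 and 4874 CPM to 3085, 3142 and 3491 CPM (log2 fold change -0.60 ± 0.15, adjusted p = 0.0030). In starch synthesis only the granule-bound starch synthase *STA2* (Cre17.g721500) passed the test among 4 enzymes, at 694, 778 and 862 CPM in LL and 1094, 946 and 1102 CPM in HL (log2 fold change 0.43 ± 0.14, adjusted p = 0.014). The branching enzymes *SBE1*, *SBE3* and *SBE4* had log2 changes of -0.23 ± 0.12, 0.08 ± 0.10 and -0.17 ± 0.10. *STA2* lost its call without HL library A, HL library C and LL library A (adjusted p = 0.068, 0.073 and 0.097).

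The genes of qE quenching rose without phototropin. *LHCSR1* (Cre08.g365900) was at 0.530, 0.707 and 0.508 CPM in LL and 195, 149.7 and 176 CPM in HL (log2 fold change 8.22 ± 0.53, adjusted p = 1.7e-08). *LHCSR3.1* (Cre08.g367500) was at 15.8, 19.7 and 22.3 CPM in LL and 1364, 921 and 1363 CPM in HL, and its near-identical copy *LHCSR3.2* (Cre08.g367400) at 46.2, 54.2 and 57.8 CPM in LL and 2533, 1788 and 2506 CPM in HL. No LL library reached any HL library in these genes. The copies rose by 5.98 ± 0.26 and 5.43 ± 0.24, and by 5.60 ± 0.25 with their counts summed. *PSBS2* (Cre01.g016750) stayed scarce, at 0.0265, 0.0337 and 0.0299 CPM in LL and 1.86, 0.741 and 1.28 CPM in HL, and each of its LL libraries held 1 count, so that its ratio, 42.0-fold higher in HL, is loose (95% interval from 14.1 to 206). All 4 qE genes tested rose past 2-fold, beside 5.21% of all genes. This count holds the 2 near-identical *LHCSR3* copies. It also holds *PSBS2*, whose *phot* LL libraries were far under the 1 CPM of the expression filter. That gene was tested through other libraries only, so its place in the count is no support. *PSBS1* was not tested for low counts, and *PSBS1* and *PSBS2* are near-identical, so reads may be shared between them. With the counts of both summed the log2 change was 4.03 ± 1.02 (adjusted p = 0.0036).

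In the early light-inducible family, relatives of the antenna proteins that are made in light stress, 4 of 5 members rose. *ELI2* (Cre09.g393173) passed the 2-fold test, at 51.6, 66.1 and 47.4 CPM in LL and 132, 137 and 162 CPM in HL (log2 fold change 1.38 ± 0.15, adjusted p = 3.1e-06). *ELI1* (Cre16.g679250) and *ELI5* (Cre04.g211850) rose by 1.05 ± 0.16 and 1.59 ± 0.52, and *ELI3* (Cre06.g278213), the most counted, was at 894, 951 and 801 CPM in LL and 1198, 1229 and 1232 CPM in HL (log2 fold change 0.47 ± 0.13, adjusted p = 0.0076). *ELI4* did not pass (-0.19 ± 0.12). *ELI5* lost its call without HL library A, LL library A and LL library C (adjusted p = 0.052, 0.051 and 0.061). *ELI3* lost its call without LL library C (adjusted p = 0.061). In the xanthophyll cycle *ZEP1* (Cre02.g082550), the zeaxanthin epoxidase, rose by 0.68 ± 0.16 and *VDR1* changed by -0.61 ± 0.20, the latter lost without LL library A (adjusted p = 0.050). *STT7* (Cre02.g120250), the kinase of state transitions, which move antenna between the photosystems, rose by 0.42 ± 0.12 (adjusted p = 0.0060). Of the genes tied to singlet oxygen, *SAK1* (Cre17.g741300), a bZIP regulator of acclimation, rose by 0.66 ± 0.12 and *PSBP2* changed by -0.38 ± 0.15, while *SOR1* did not pass (-0.15 ± 0.20). *PSBP2* lost its call without HL library A, HL library B and LL library B (adjusted p = 0.087, 0.056 and 0.13).

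Other photoreceptors answered in different directions. *CRY-DASH1* (Cre02.g078939), a cryptochrome of the DASH type, was at 1.93, 1.68 and 1.37 CPM in LL and 9.25, 8.87 and 9.37 CPM in HL (log2 fold change 2.45 ± 0.20, adjusted p = 2.0e-07). *CRY-DASH2* (Cre01.g030650) rose less, from 20.4, 21.5 and 20.1 CPM to 35.1, 34.5 and 34.6 CPM (log2 fold change 0.75 ± 0.08, adjusted p = 3.7e-06). The plant-type cryptochrome *pCry* (Cre06.g295200) fell, from 106, 105 and 113 CPM to 46.1, 54.7 and 48.9 CPM (log2 fold change -1.11 ± 0.15, adjusted p = 2.8e-05). The animal-like cryptochrome *aCry* and the UV-B receptor *UVR8* did not pass the test, with -0.13 ± 0.13 and 0.20 ± 0.08. Both channelrhodopsins, the light-gated ion channels of the eyespot, fell. *CHR1/COP3* (Cre14.g611300) was at 421, 433 and 460.5 CPM in LL and 199, 174 and 172 CPM in HL (log2 fold change -1.27 ± 0.12, adjusted p = 5.7e-07), and *CHR2/COP4* (Cre02.g085257) at 75.8, 85.5 and 94.6 CPM in LL and 40.7, 32.1 and 35.7 CPM in HL (log2 fold change -1.24 ± 0.11, adjusted p = 4.3e-07). *COP10*, *COP7* and *COP6* rose, by 0.81 ± 0.15, 0.39 ± 0.13 and 0.32 ± 0.09, and *COP5*, *COP8* and *COP9* did not pass. *COP7* lost its call without HL library A, HL library B, HL library C and LL library C (adjusted p = 0.073, 0.056, 0.068 and 0.13), and *COP6* lost its call without HL library C and LL library A (adjusted p = 0.055 and 0.073).

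The CUL4 ubiquitin ligase with its COP1, SPA1, DDB1 and DET1 parts, which restrains light-induced genes in plants, showed small changes in 1 direction. *COP1* (Cre01.g002500), its substrate receptor, was at 101, 121 and 109.8 CPM in LL and 171, 177 and 205 CPM in HL (log2 fold change 0.74 ± 0.16, adjusted p = 0.0012), and *SPA1* (Cre13.g602700), its partner, at 16.5, 16.1 and 18.1 CPM in LL and 24.8, 23.6 and 27.9 CPM in HL (log2 fold change 0.59 ± 0.13, adjusted p = 0.0013). *DET1* (Cre13.g571560), *CUL4* (Cre12.g516500) and *DDB1* (Cre10.g432000) rose by 0.82 ± 0.15, 0.36 ± 0.10 and 0.29 ± 0.09. In all, 5 of the 6 parts rose (83.3%) and none fell, beside 31.2% and 27.7% of all genes, with a median of 0.48. The calls of small changes depend on the scaling, as given below. *Cr_UBC17* did not pass (0.29 ± 0.13), although it passed without LL library B (adjusted p = 0.045). *DDB1* lost its call without HL library B, HL library C and LL library C (adjusted p = 0.063, 0.087 and 0.077). Of the transcription factors tied to qE genes, *CRCO* (Cre06.g278159), a CONSTANS-like protein, rose by 0.55 ± 0.13 (adjusted p = 0.0023), and *NF-YB* and *NF-YC* did not pass (0.17 ± 0.11 and 0.25 ± 0.12). *ROC75* (Cre02.g083750), a factor of the circadian clock, fell from 90.5, 107 and 111 CPM to 39.3, 38.0 and 41.4 CPM (log2 fold change -1.38 ± 0.13, adjusted p = 6.5e-07).

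All 10 regulators that the study ranked for the qE genes in its phototropin network responded to light in the mutant, 4 upward and 6 downward, with a median of −0.94. The study chose them on these samples, so their number is no independent evidence. *LCI8* (Cre02.g144800) rose most, at 16.2, 16.5 and 14.4 CPM in LL and 64.4, 51.8 and 62.8 CPM in HL (log2 fold change 1.92 ± 0.14, adjusted p = 5.7e-08). The study found no effect of *LCI8* overexpression on qE transcripts after strong light. It judged *LCI8* a likely enzyme of arginine synthesis, wrongly listed as a factor. Cre16.g676421 fell most, at 335, 325 and 338 CPM in LL and 27.6, 37.7 and 30.4 CPM in HL (log2 fold change -3.38 ± 0.29, adjusted p = 2.2e-07). Among the genes named qE regulators, *QER7* (Cre01.g043550) was at 4.51, 5.02 and 5.38 CPM in LL and 1.14, 0.789 and 0.767 CPM in HL (log2 fold change -2.47 ± 0.17, adjusted p = 3.9e-08). *QER1*, *QER5* and *QER2* changed by -2.07 ± 0.22, -1.45 ± 0.13 and -0.51 ± 0.13, and Cre08.g364050 by 0.88 ± 0.13. In *QER7*, *QER1* and *QER5* no HL library reached the lowest LL library.

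**Figure D3:**
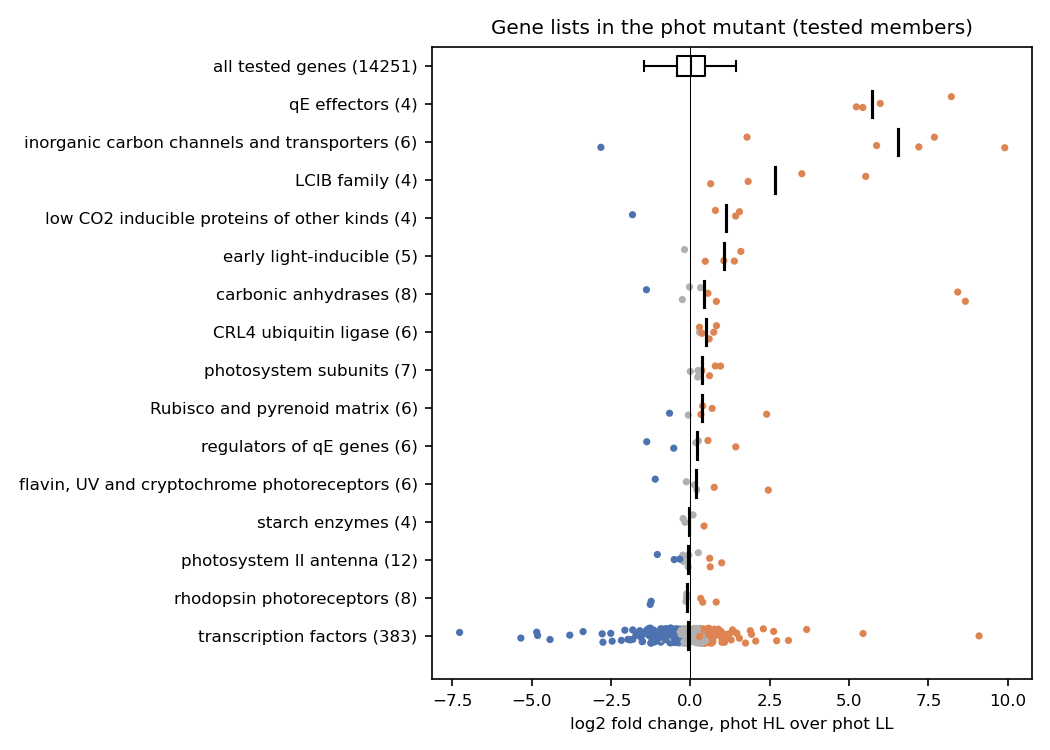
Log2 fold change of phot HL over phot LL for the tested members of the gene lists, 1 point per gene, with the number of tested members in brackets, medians as black bars, genes that rose in orange, genes that fell in blue and genes that did not pass the test in grey. The box at the top gives the middle and the spread of all 14251 tested genes. The qE genes and the carbon transporters stand furthest right, and the antenna genes lie around 0.

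The antenna genes of photosystem II had no common direction in *phot*. Of 12 tested, 3 rose (25%), 3 fell (25%) and 6 did not pass, beside 31.2% higher and 27.7% lower among all genes. None passed the 2-fold test, beside 10.6% of all genes, and the median log2 change was −0.09. These counts do not set the antenna genes apart from other genes. *LHCBM1* (Cre01.g066917), a major trimeric antenna protein, was at 6694, 6691 and 6051 CPM in LL and 5128, 5829 and 5484 CPM in HL, a log2 change of -0.24 ± 0.14 (adjusted p = 0.16). *LHCBM4* (Cre06.g283950) fell most, from 260.0, 281 and 202 CPM to 114, 135 and 112 CPM (log2 fold change -1.04 ± 0.15, adjusted p = 3.6e-05). *LHCBM6* and *LHCBM2* changed by -0.51 ± 0.16 and -0.34 ± 0.12, the latter lost without LL library B (adjusted p = 0.058). *LHCBM3* (Cre04.g232104) rose, from 2065, 2131 and 1699.8 CPM to 2817, 3145 and 3013 CPM (log2 fold change 0.61 ± 0.14, adjusted p = 0.0017). Of the monomeric antenna proteins that link trimers to the core, *LHCB4* (Cre17.g720250) rose from 2035, 2208 and 1809.9 CPM to 3037, 3142 and 3142 CPM (log2 fold change 0.62 ± 0.12, adjusted p = 5.4e-04), *LHCB5* did not pass (-0.05 ± 0.11), and the scarcer *LHCB7* rose by 0.98 ± 0.11. Since *LHCBM* genes are near-identical, copies were also summed, which gave −0.06 ± 0.12 for *LHCBM2* with *LHCBM7* and −0.53 ± 0.16 for *LHCBM4*, *LHCBM6*, *LHCBM8* and *LHCBM9*.

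The light response of these antenna genes differed between the genotypes. In WT, 11 of the 12 fell in HL (35.1% of all genes) and 1 rose (38.9%), and the light response of *phot* minus that of WT passed the test in all 12, beside 51.8% of all genes. The difference was positive in 11 of them (23.5% of all genes) and negative (28.4% of all genes) in *LHCB7* (-1.38 ± 0.16). *LHCBM1* fell from 1772 ± 155 CPM to 379 ± 71.0 CPM in WT (mean ± SD, n = 3), where *phot* went from 6479 ± 371 CPM to 5480.5 ± 351 CPM. The light response of *phot* was higher by 1.99 ± 0.20 on the log2 scale (adjusted p = 2.9e-06). For *LHCBM3* WT fell from 474 ± 62.2 CPM to 57.7 ± 7.59 CPM, and the difference was 3.64 ± 0.20 (adjusted p = 1.3e-08). The mutant also held more antenna transcript before the shift, since the 12 genes took 2.54% to 2.92% of all counts in *phot* LL and 0.398% to 0.601% in WT LL. After it they took 2.53% to 2.92% in *phot* HL and 0.0738% to 0.108% in WT HL. Scaling factors by the trimmed mean method were higher in *phot* LL (1.09 to 1.21) than in WT LL (0.66 to 0.86), and their part in this difference was tested only by changing the scaling, which left all 12 differences called, as did leaving out any 1 library.

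**Figure D4:**
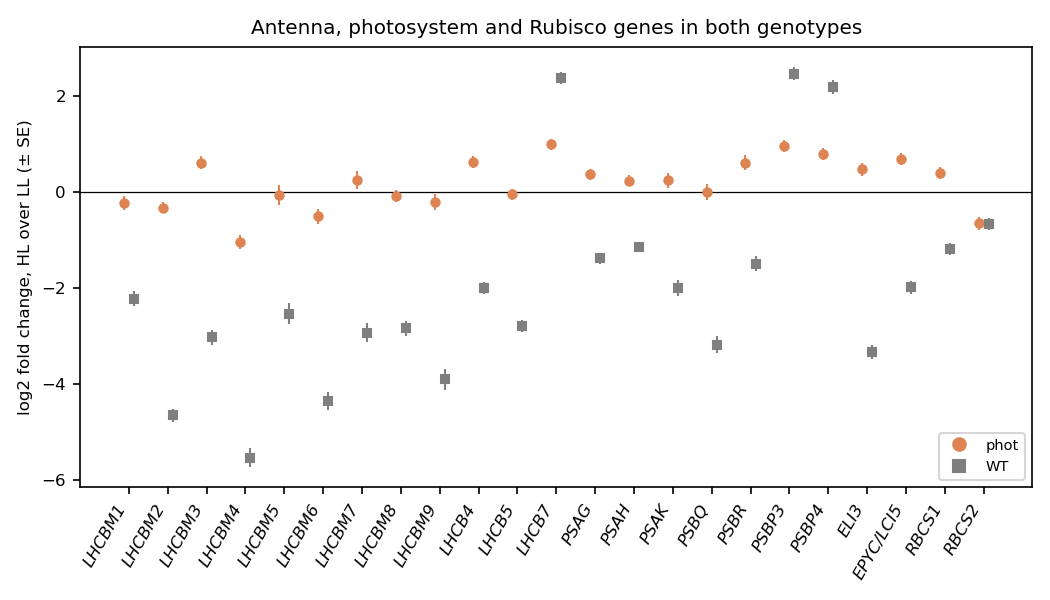
Log2 fold change of HL over LL with its standard error for antenna, photosystem and Rubisco genes, phot as orange circles and WT as grey squares, from 3 libraries per group. The phot points lie between −1.04 and 0.98, and the WT points of *LHCBM1* to *LHCBM9* between −5.54 and −2.23.

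Photosystem subunits showed small changes. Among 7 tested in *phot*, 4 rose (57.1%) and none fell, beside 31.2% and 27.7% of all genes, with a median of 0.36. *PSBR* (Cre06.g261000), a photosystem II subunit, was at 2610.1, 3281 and 2570.1 CPM in LL and 3829.7, 4216 and 4782 CPM in HL (log2 fold change 0.60 ± 0.16, adjusted p = 0.0045). *PSBP3* (Cre12.g509050) and *PSBP4* (Cre08.g362900), relatives of an oxygen-evolving complex protein, rose by 0.95 ± 0.13 and 0.78 ± 0.13, and *PSAG* (Cre12.g560950) of photosystem I by 0.36 ± 0.11. *PSBQ*, *PSAH* and *PSAK* did not pass (-0.00 ± 0.17, 0.23 ± 0.11 and 0.24 ± 0.16). *PSAG* lost its call without HL library C and LL library C (adjusted p = 0.059 and 0.098), whereas *PSAH* and *PSAK* passed without LL library B (adjusted p = 0.043 and 0.045). The light response differed from that of WT in all 7, upward in 5 and downward in *PSBP3* and *PSBP4*. The widest gap was that of *PSBQ*, a subunit near the oxygen-evolving complex, which fell from 997 ± 124 CPM to 109.6 ± 30.1 CPM in WT (difference 3.18 ± 0.25, adjusted p = 2.6e-07).

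Rubisco and its surroundings gave a mixed picture. *RBCS2* (Cre02.g120150), the more counted small subunit gene, fell from 12324, 11845 and 12097 CPM to 7716, 7399 and 7843 CPM (log2 fold change -0.66 ± 0.13, adjusted p = 7.3e-04). *RBCS1* (Cre02.g120100), its near-identical neighbour, rose from 729, 754 and 712 CPM to 970.4, 965 and 933 CPM (log2 fold change 0.39 ± 0.12, adjusted p = 0.014), and the sum of both fell by 0.57 on the log2 scale. *RBCS1* lost its call without HL library A, HL library B, LL library A and LL library C (adjusted p = 0.062, 0.056, 0.062 and 0.076). *EPYC/LCI5* (Cre10.g436550), the linker that packs Rubisco into the pyrenoid, rose in *phot*, at 1563, 1505 and 1650.0 CPM in LL and 2466, 2420.4 and 2683 CPM in HL (log2 fold change 0.68 ± 0.13, adjusted p = 4.2e-04), and fell in WT by 1.99 (difference 2.67 ± 0.19, adjusted p = 9.7e-08). *SMM7* (Cre03.g151650) rose most in this list, from 27.9, 30.7 and 35.9 CPM to 167, 152 and 181 CPM (log2 fold change 2.40 ± 0.14, adjusted p = 1.0e-08). *CGLD10* rose by 0.33 ± 0.11 and *RCA1*, Rubisco activase, did not pass (-0.07 ± 0.15). *CGLD10* lost its call without HL library B, HL library C, LL library A and LL library C (adjusted p = 0.11, 0.062, 0.069 and 0.14).

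Transcription factors as a class fell slightly more often than they rose. Of 407 on the study's list 383 were tested, 90 rose (23.5%) and 129 fell (33.7%), beside 31.2% and 27.7% of all genes. Past 2-fold, 13 rose and 26 fell, and the median was −0.07. Among 25 families with 5 or more members tested, 17 had a median below 0 and 8 above. The SBP family, plant factors named for SQUAMOSA promoter binding, had 13 fallers and 2 risers among 24 members and a median of −0.50, or −0.30 with 1 scarce gene set at its bound. RWP-RK factors, known from nitrogen responses and sexual development, had 6 fallers and 2 risers among 11 members (median −0.43). Mixed families also occurred, such as SNF2 chromatin remodellers with 6 risers and 4 fallers among 13 (median 0.24). GNAT acetyltransferases had 9 risers (34.6%) and 2 fallers (7.69%) among 26 (median 0.22). Their share of risers was close to the 31.2% of all genes, and their share of fallers was under the 27.7% of all genes.

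The single factor with the largest rise was Cre06.g310500, listed as a bZIP protein, which had 2, 2 and 0 counts in LL and 1098, 452 and 891 counts in HL, 578-fold higher (95% interval from 225 to 2123). Cre08.g383000, listed with the AP2 family, was at 1.54, 1.68 and 0.926 CPM in LL and 66.4, 50.5 and 63.3 CPM in HL (log2 fold change 5.44 ± 0.24, adjusted p = 5.8e-10). Cre01.g004600, an RWP-RK factor, was at 15.5, 12.7 and 12.6 CPM in LL and 54.6, 60.4 and 54.9 CPM in HL (log2 fold change 2.06 ± 0.16, adjusted p = 9.4e-08). This last gene did not pass the test in WT, and the difference between the genotypes was 1.88 ± 0.22 (adjusted p = 1.0e-05). Among factors with a mean of at least 3 log2 CPM the largest falls were those of Cre09.g410450 (G2-like), at 215, 223 and 223 CPM in LL and 4.52, 6.57 and 5.11 CPM in HL (log2 fold change -5.34 ± 0.34, adjusted p = 1.7e-08), and Cre16.g677382 (MYB), at 103, 150.4 and 136 CPM in LL and 4.37, 6.0 and 3.07 CPM in HL (log2 fold change -4.84 ± 0.40, adjusted p = 1.7e-07). Cre14.g617200 (VARL) and Cre03.g146267 (C3H) followed with -4.43 ± 0.24 and -3.80 ± 0.40. In each of these 4 the HL libraries lay below every LL library.

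**Figure D5:**
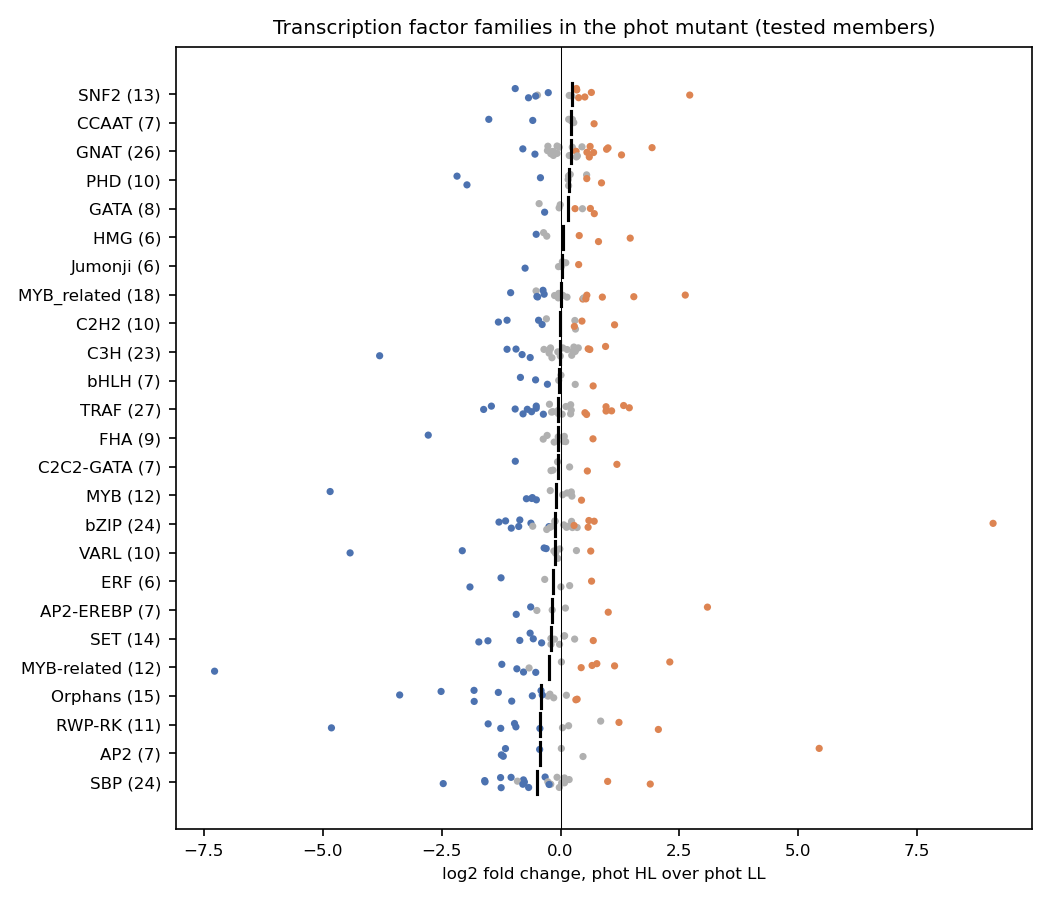
Log2 fold change of phot HL over phot LL for the tested members of 25 transcription factor families, 1 point per gene, with the number of tested members in brackets and family medians as black bars. Orange genes rose, blue genes fell and grey genes did not pass the test. The families are ordered by median, from SBP at −0.50 to SNF2 at 0.24, and the fitted value of the rightmost bZIP gene, Cre06.g310500, depends on the prior count.

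Several of the largest changes over all genes were in genes without a name in the files. Cre12.g555700 was at 0.186, 0.337 and 0.329 CPM in LL and 459, 379 and 455 CPM in HL (log2 fold change 10.58 ± 0.45, adjusted p = 4.2e-10), and Cre02.g112333 at 0.239, 0.135 and 0.0299 CPM in LL and 207, 115 and 169 CPM in HL (log2 fold change 10.16 ± 0.70, adjusted p = 3.1e-08). With *CYC6*, *LCI1*, *CAH4*, *CAH5*, Cre04.g223300 and Cre06.g310500 they were the 8 genes that rose most among those with a mean of at least 3 log2 CPM, and together these took 0.00413% to 0.00568% of all counts in LL and 2.82% to 3.14% in HL. At the other end, Cre16.g681400 was at 149.7, 149 and 187 CPM in LL and 0.898, 0.789 and 0.735 CPM in HL (log2 fold change -7.64 ± 0.60, adjusted p = 1.1e-07), and its neighbour Cre16.g681351 at 204, 203 and 226 CPM in LL and 5.51, 5.81 and 4.76 CPM in HL (log2 fold change -5.30 ± 0.19, adjusted p = 7.2e-11). Cre06.g310200, Cre03.g192050, Cre09.g393150 and Cre11.g467615 had log2 changes of -5.07, -5.03, -4.72 and -4.58, without overlap between LL and HL. Cre16.g681351 fell less in WT, with a log2 change of -1.26 there and a difference of -4.03 ± 0.23 (adjusted p = 1.7e-08).

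Genes that changed strongly often lay next to each other. Of the 741 genes with a position that rose past 2-fold, 150 (20.2%) had a directly neighbouring gene that rose past 2-fold as well, beside 8.65% of all tested genes. Of the 765 that fell past 2-fold, 133 (17.4%) had such a neighbour that fell, beside 8.83%. No run was longer than 3 genes. Runs of rising genes joined *LCIE*, Cre04.g223300 and Cre04.g223350, Cre05.g248500, *CAH5* and *CAH4*, and Cre12.g555800, Cre12.g555750 and Cre12.g555700. Cre02.g112333 stood beside Cre02.g112366, which had 1, 2 and 0 counts in LL and 587, 402 and 452 in HL. Reads were counted by strand, but how reads over overlapping neighbours were assigned is not known here.

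Few genes were silent in 1 condition only. Counting every gene of the table, 228 were at or under 3 counts throughout LL and above it in HL, and 10 of these averaged 1 CPM or more in HL. The reverse held for 306 genes, of which 5 averaged 1 CPM or more in LL. The clearest of the latter was Cre06.g275350, a MYB-related factor under the 3 log2 CPM limit, which had the lowest fitted change of all transcription factors, with 247, 203 and 201 counts in LL and 2, 1 and 1 in HL, 172-fold lower in HL (95% interval from 66.8 to 633). The genes with the most counts changed as well. Cre03.g204250 went from 486, 427 and 393 CPM to 7523, 8500.0 and 8773 CPM (log2 fold change 4.25 ± 0.20, adjusted p = 8.2e-10). Cre06.g272800 and Cre05.g234550, the 2 genes with the most CPM in LL, changed by -0.73 ± 0.22 and -0.74 ± 0.18. Cre06.g272800 lost its call without LL library B (adjusted p = 0.060).

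Most of the strong light responses of the mutant were shared with WT. Of the 742 genes that rose past 2-fold in *phot*, 607 also rose in WT (38.9% of all genes), 61 fell there (35.1% of all genes) and 74 were not called. Of the 765 that fell, 703 fell in WT, 14 rose and 48 were not called. The sizes still differed in 488 of the 742 risers and 398 of the 765 fallers by the test of the difference, beside 51.8% of all genes. The share among the fallers was close to that of all genes. Both sets were chosen by the *phot* response, which is part of this difference. Among the CCM genes, *LCI1* rose more in *phot* than in WT by 5.15 ± 0.45 (adjusted p = 7.4e-07), *HLA3* by 2.28 ± 0.45 (adjusted p = 7.2e-04) and Cre04.g223300 by 3.47 ± 0.38 (adjusted p = 4.6e-06). The start differed too, since *LCI1* was at 70.9, 72.8 and 45.4 CPM in WT LL against 11.4, 6.09 and 8.54 CPM in *phot* LL, and at 2529, 957 and 1630.0 CPM in WT HL. None of the 4 LCIB family genes passed this test. *LHCSR3.1* rose less in *phot*, with a difference of -1.17 ± 0.29 (adjusted p = 0.0042), and *LHCSR1* did not pass (0.22 ± 0.67). Without WT HL library A the differences of *LHCSR1*, *LCID* and *LCIA* were largest, at 1.20, 1.00 and 1.35. Each of these genes passed the test in 1 leave-one-out refit only (lowest adjusted p = 0.0043, 0.011 and 0.0060). The qE genes took 1.45% of all counts in WT HL library A, against 0.899% and 1.01% in B and C. *RHP1* fell less in *phot* than in WT, a difference of 3.49 ± 0.22 (adjusted p = 3.9e-08).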

How the data were processed

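RNA was sequenced from 12 cultures, of which the 6 of the *phot* mutant are described. The authors deposited unnormalized counts for each gene. As the labels and methods describe, stranded mRNA reads were aligned with STAR (2.5.3a in the submitters' processing notes) to assembly version 5 and counted by HTSeq-count on the reverse strand, with no normalization and no pooling. How the authors' counting treated overlapping genes is not given in the sources used here. The table held 17741 genes. No column of per-sample values was left out (0 columns).

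Column names give the group and no replicate number, so letters A, B and C follow column order and pair nothing. Totals of the *phot* libraries ranged from 27136674 to 33906264 counts, and within-group correlations of log2 CPM were at least 0.992. No 2 libraries agreed within counting noise (chi-square per degree of freedom 7.69 to 23.8 within *phot* groups), and all count as replicates. The labels say only that the samples are triplicates, and the study describes its own RNA sequencing as done on 3 biological replicates per condition. The p-values measure the spread between these samples.

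Genes above 1 CPM in at least 4 of the 12 libraries were tested (14251) in R 4.3.3 with the quasi-likelihood test of edgeR 4.0.16 and TMM factors, 1 coefficient per group and all 12 libraries. The biological coefficient of variation was 0.072 in *phot* LL, 0.091 in *phot* HL, 0.139 in WT LL and 0.178 in WT HL, and the shared fit uses all. Adjustment followed Benjamini and Hochberg over all tested genes, with a threshold of 0.05. The test beyond 2-fold was glmTreat. Log2 fold changes carry ± SE. Where a group had at most 3 counts in each library, the ratio of summed counts over scaled library totals is given with its exact (Clopper-Pearson) 95% interval, and list medians were also taken with such genes at a bound of 3 counts in the shallowest library. Alternatives were other scaling (DESeq2 1.42.0 size factors, upper quartile, totals), other filters, DESeq2, limma-voom (limma 3.58.1), the *phot* libraries alone and leaving out each library.

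The lists follow the study's supplement and gene families, and the members, lists and rules were chosen with earlier results of these data known. Named were *PHOT1*, the members of the short lists, the 3 strongest risers and fallers of the others, the 8 strongest over all genes and 4 transcription factors in each direction, and the 4 genes with the most CPM, where the means passed 3 log2 CPM. The genes between *CCP2* and Cre04.g223300, Cre02.g112366 and Cre06.g275350 were picked after their values were seen. Gene order was taken from RefSeq assembly Chlamydomonas_reinhardtii_v5.5 (17738 identifiers matched, 3 not), with no coordinates printed because the builds were not compared. No sequences were used here.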

Additional observations from a re-analysis of the deposited data

Results flagged for a closer look

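The light response (HL over LL, log2) was compared between the genotypes for the named genes, as the response of *phot* minus that of WT, by the interaction term of the edgeR fit. Of a set of 127 named genes tested, 82 differed, 50 with a higher and 32 with a lower value in *phot*, at an adjusted p of at most 0.048. Over all 14251 tested genes 51.8% differed, 23.5% with a higher and 28.4% with a lower value in *phot*. Part of the named set was chosen by the size of the *phot* response, which is part of this difference, so its count is no independent result. The differences of the 82 genes are given here by process, as values with no explanation. The set does not hold every gene described above. Among others it leaves out Cre16.g652800, *LHCBM5*, *LHCBM7*, *LHCBM8* and *LHCBM9*, whose differences were 2.81, 2.47, 3.18, 2.75 and 3.69. In the antenna of photosystem II, *LHCBM1*, *LHCBM2*, *LHCBM3*, *LHCBM4*, *LHCBM6*, *LHCB4*, *LHCB5* and *LHCB7* differed by 1.99, 4.32, 3.64, 4.50, 3.85, 2.62, 2.74 and -1.38. Among photosystem subunits, *PSAG*, *PSAH*, *PSAK*, *PSBQ*, *PSBR*, *PSBP3* and *PSBP4* differed by 1.75, 1.39, 2.25, 3.18, 2.10, -1.51 and -1.40. In Rubisco and its surroundings, *RBCS1*, *RCA1*, *EPYC/LCI5* and *SMM7* differed by 1.58, 1.23, 2.67 and -0.60. For carbon transport and carbonic anhydrases, *LCI1*, *HLA3*, *CCP2*, *RHP1*, *CAH2*, *CAH3*, *CAH4*, *CAH6*, *CAH7* and *CAH9* differed by 5.15, 2.28, 1.67, 3.49, 1.87, -1.20, 0.77, 0.77, 0.93 and 1.05. Other CCM genes, regulators and enzymes, *LCI30*, *LCI34*, *CIA5*, *CAS*, *TEF9*, *ACP2*, *SBE4* and *CYC6*, differed by -0.73, 1.16, -0.42, 0.51, -3.56, 1.17, 0.97 and 3.42. In photoprotection and the early light-inducible family, *LHCSR3.1*, *LHCSR3.2*, *ELI1*, *ELI2*, *ELI3*, *ELI5*, *ZEP1*, *VDR1*, *STT7*, *SOR1* and *PSBP2* differed by -1.17, -0.96, -1.66, -0.88, 3.81, -2.86, -0.63, 1.12, -0.59, -0.78 and 0.64. Photoreceptors and ligase parts, *PHOT1*, *CRY-DASH2*, *aCry*, *CHR1/COP3*, *CHR2/COP4*, *COP7*, *COP10*, *DET1*, *SPA1* and *Cr_UBC17*, differed by 0.50, 0.37, -1.43, 0.57, -0.96, 1.23, -0.53, -2.17, -1.22 and -0.58. Transcription factors and ranked regulators, *CRCO*, *NF-YC*, *LCI8*, *QER1*, *QER2*, *QER5*, Cre08.g364050, Cre01.g004600, Cre08.g383000 and Cre09.g410450, differed by -0.46, -0.77, -1.48, 4.26, 0.62, -1.09, -0.92, 1.88, 2.70 and -1.93. The remaining genes, Cre02.g112333, Cre02.g112366, Cre03.g204250, Cre04.g223100, Cre04.g223200, Cre04.g223225, Cre04.g223300, Cre05.g234550, Cre06.g310200, Cre09.g393150, Cre11.g467615, Cre12.g555700, Cre16.g681351 and Cre16.g681400, differed by 7.28, 6.28, 1.34, 2.12, 1.86, 2.03, 3.47, 1.83, -2.66, -0.77, 2.12, 3.24, -4.03 and -2.94. The values of *CYC6* and Cre02.g112366, which had at most 3 counts per *phot* LL library, depend on the prior count.

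Some of these differences were no longer called when 1 library was left out. *ZEP1* lost the call without phot HL A, B, C, WT HL A, phot LL A, B, C and WT LL C (adjusted p 0.053 to 0.25). *CIA5* fell short without phot HL A, B, C, WT HL A, B and phot LL A, C (adjusted p 0.061 to 0.23). *STT7* was not called without phot HL A, B, C, WT HL A and phot LL C (adjusted p 0.051 to 0.10). The call of *SMM7* was lost without phot HL A, B, C, WT HL A and phot LL A, C (adjusted p 0.056 to 0.19). *CCP2* lost the call without phot HL A, C, WT HL C, phot LL A, B and WT LL A, B (adjusted p 0.053 to 0.097). *CRCO* fell short without phot HL A, B, C, WT HL A, C, phot LL A, B, C and WT LL A, B, C (adjusted p 0.064 to 0.49). *Cr_UBC17* was not called without phot HL A, B, C, WT HL A, B and phot LL A, C (adjusted p 0.064 to 0.15). The call of *SOR1* was lost without phot HL A, B, C, WT HL B, C, phot LL A, C and WT LL A, C (adjusted p 0.051 to 0.15). *COP10* lost the call without phot HL A, B, C, WT HL A, C, phot LL A, B, C and WT LL B, C (adjusted p 0.066 to 0.29). *LHCSR3.2* fell short without phot HL B, WT HL A and phot LL C (adjusted p 0.067 to 0.074). *CAS* was not called without WT HL C (adjusted p = 0.079). The call of *ELI5* was lost without WT LL A, C (adjusted p 0.050 to 0.051). With library totals in place of scaling factors, *CRY-DASH2*, *PHOT1*, *CCP2*, *CAH4*, *VDR1*, *CAS*, *CAH7*, *CHR1/COP3*, *PSBP2* and *QER2* were not called (adjusted p 0.062 to 0.60).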

How the results depend on the processing

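The counts of called genes stayed within 1.5 times their value under every setting run. The number called between *phot* HL and *phot* LL was 9343 with the 6 *phot* libraries alone, 7268 with library totals, 8446 with DESeq2 and 8560 with limma-voom, and 8019 genes were called by edgeR, DESeq2 and limma alike. Leaving out 1 library gave 7274 to 7661 called genes, 1309 to 1446 past 2-fold and 6426 to 7706 with a different response in WT. Scaling shifted the median of all genes from 0.03 to -0.08 with upper-quartile factors, and the share of calls that were higher from 53.0% to 43.0%, so small changes of either sign depend on the scaling. Over 4384 refits of named genes, no called gene changed sign, 185 calls were lost and 87 gained. Fits with the 6 *phot* libraries alone added 13 calls and lost none. With upper-quartile factors 10 list medians moved beyond the spread of the list between libraries and 11 did not. Over all settings 16 moved and 235 did not. The medians with upper-quartile factors were 0.05 for cryptochromes and related receptors, 0.17 for photoprotection and -0.19 for transcription factors. *PSBS2* and other scarce genes are limited by depth. Summing near-identical copies was added after seeing the data.

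No paired analysis was possible because the columns carry no replicate numbers, so libraries of different groups could not be matched.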
